A study of Homo sapiens with 48 samples.

Results

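RELB regions called after 6 h of TWEAK but not in vehicle were compared with those called after 6 h of TNFα but not in vehicle. The cells were L3.6pl, an established line of human pancreatic ductal adenocarcinoma. Outside tandem repeats of the genome, 1114 regions were called after TWEAK only, 130 after both ligands and 35 after TNFα only. Outside repeats, most TNFα regions (131 of 166) were therefore also called after TWEAK, whereas about 1 in 10 TWEAK regions was called after TNFα. In tandem repeats most TNFα regions were not called after TWEAK, and with repeats included 28.2% of the TNFα regions were shared. Members are the regions of the RELB peak lists of TWEAK at 6 h (4038 regions) and TNFα at 6 h (3526 regions) on chromosomes 1 to 22 and X that overlapped neither the RELB nor the RELA list of vehicle-treated cells. The RELB vehicle list held 4085 regions on these chromosomes, more than either 6 h list. Leaving out the vehicle regions kept 1544 of the TWEAK and 726 of the TNFα regions, together 2270 of the 406020 regions in all 16 lists of the series. By an overlap of at least 1 bp with the whole other 6 h list, 1344 were TWEAK only and 521 TNFα only. The shared class held 200 regions counted in the TWEAK list and 205 counted in the TNFα list.

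The series comprised 48 ChIP-seq samples in 16 groups of 3, in which RELB, RELA and H3K27ac, a histone mark of active enhancers and promoters, were precipitated after vehicle (PBS), TNFα or TWEAK (30 min or 6 h each), and FOSL1 in vehicle alone. Each group had 1 list of merged peaks, so no spread between replicates was measured and intervals cover the counting error of regions only. For RELA at 30 min of TNFα, the peak names do not show whether all 3 samples were merged. All groups were the same unmodified line, the duration of vehicle treatment is not in the labels, and the RELA immunoprecipitation used other beads than RELB. The depth per sample is unknown, and a longer list cannot be told apart from a deeper one. In bulk chromatin, binding in more cells and stronger binding per cell cannot be told apart either. In vehicle, H3K27ac lay within 1 kb of a transcription start site (TSS) of all 5 epithelial markers examined (KRT8, KRT18, KRT19, EPCAM and CDH1). The folds of their strongest peaks ran from 1.84 at KRT19 to 4.23 at EPCAM. Of 5 markers of other cells, PTPRC, CD3E and INS had none. PECAM1 and COL1A1 had a peak of fold 1.99 and 3.43, within the range of the epithelial markers.

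RELB is the NF-κB subunit that pairs mainly with p52. In the noncanonical pathway, receptors such as TNFRSF12A, which binds TWEAK, stabilise the kinase NIK, so that the precursor p100 is processed to p52 and RELB:p52 dimers enter the nucleus over hours. In the canonical pathway, TNFα activates the IKK complex within minutes and releases RELA dimers, and the RELB and NFKB2 genes are themselves canonical targets. Both dimers bind related GC-flanked sites termed κB sites. AP-1 factors such as FOSL1 bind a different motif and mark many enhancers of epithelial tumour cells.

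Sequences at the strongest regions outside tandem repeats are given because the classes differed in the motifs they held. They are the 120 bases around the summit of the strongest regions of each class by fold enrichment, which is the ratio of ChIP reads over input at the summit. The plus strand of hg38 is given 5′ to 3′, named by the nearest protein-coding TSS, and capitals mark matches to the NF-κB consensus or to the AP-1 motif TGACTCA on either strand. Windows touching an annotated exon were passed over. The TWEAK-only windows each held 1 κB match, and that near SVIL an AP-1 match as well:
INO80C (chr18:35458992-35459111): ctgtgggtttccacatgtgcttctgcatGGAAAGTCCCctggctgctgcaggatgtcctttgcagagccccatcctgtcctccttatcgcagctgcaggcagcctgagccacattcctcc
SMAD2 (chr18:47772706-47772825): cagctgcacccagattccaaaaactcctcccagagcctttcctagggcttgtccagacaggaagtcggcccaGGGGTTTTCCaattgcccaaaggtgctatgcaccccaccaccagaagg
SVIL (chr10:29659193-29659312): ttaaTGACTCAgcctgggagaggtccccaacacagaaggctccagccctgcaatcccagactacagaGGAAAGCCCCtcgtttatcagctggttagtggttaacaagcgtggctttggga
USP49 (chr6:41895954-41896073): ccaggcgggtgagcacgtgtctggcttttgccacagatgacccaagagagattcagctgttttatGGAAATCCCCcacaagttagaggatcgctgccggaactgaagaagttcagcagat
The shared regions held a κB match in 2 of 4 and an AP-1 match in 2 of 4:
PSMB7 (chr9:124392980-124393099): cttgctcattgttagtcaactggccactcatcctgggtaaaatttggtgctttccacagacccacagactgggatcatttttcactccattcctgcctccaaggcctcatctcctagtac
TNIP2 (chr4:2746243-2746362): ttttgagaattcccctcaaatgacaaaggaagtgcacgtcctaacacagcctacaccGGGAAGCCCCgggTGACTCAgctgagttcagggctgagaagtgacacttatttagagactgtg
FAAH2 (chrX:57286491-57286610): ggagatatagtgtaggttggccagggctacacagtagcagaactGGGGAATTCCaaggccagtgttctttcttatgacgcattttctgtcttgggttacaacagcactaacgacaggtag
IFNGR2 (chr21:33383173-33383292): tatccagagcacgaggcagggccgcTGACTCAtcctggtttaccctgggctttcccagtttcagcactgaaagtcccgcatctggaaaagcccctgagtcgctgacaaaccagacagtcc
None of the TNFα-only windows held a match to either motif:
CNTNAP2 (chr7:145997316-145997435): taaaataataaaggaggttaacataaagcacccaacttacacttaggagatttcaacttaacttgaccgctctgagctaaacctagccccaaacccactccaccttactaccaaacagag
PDZRN4 (chr12:41363619-41363738): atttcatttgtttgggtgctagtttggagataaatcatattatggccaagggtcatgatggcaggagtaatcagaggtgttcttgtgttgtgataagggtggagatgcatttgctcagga
DEFB115 (chr20:30516703-30516822): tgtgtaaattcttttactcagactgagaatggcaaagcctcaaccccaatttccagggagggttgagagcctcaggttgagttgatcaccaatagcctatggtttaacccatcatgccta
AMY2B (chr1:103594276-103594395): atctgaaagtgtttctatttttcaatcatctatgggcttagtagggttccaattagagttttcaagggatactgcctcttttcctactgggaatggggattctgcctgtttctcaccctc

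The 8 strongest regions of each class, from which these were taken, had nearest genes of varied function. Among the TWEAK-only regions, the fold enrichment ran from 16.0 (rank 106 of the TWEAK list) to 13.6 (rank 189). The first (chr18:35458934-35459153) lay in an intron 28.4 kb from the TSS of INO80C, a subunit of a chromatin remodelling complex. The next lay between genes 124 kb from SMAD2, a TGFβ signal transducer (fold 15.3), and in an intron 24.3 kb from SVIL, an actin-binding protein (fold 15.1). A region 639 bp from a TSS of the deubiquitinase USP49 had a fold of 14.8. Others lay in intron 3 of CYTH1 (chr17:78706423-78706701, fold 14.1), intron 3 of NTN4 (chr12:95721379-95721596, fold 13.7) and intron 2 of the transcriptional repressor ZBTB7A (chr19:4052465-4052722, fold 13.6). All 8 were in both RELA lists of TNFα-treated cells, and 7 held a κB match in the 200 bp around the summit. The strongest sites listed for RELB only after TWEAK were thus listed for RELA after TNFα. In vehicle, 6 of the 8 had H3K27ac, and SMAD2 and CYTH1 did not.

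The 8 strongest shared regions were picked by their TWEAK fold, which ran from 15.7 to 20.1. Their TNFα folds were lower throughout, a difference that this choice favours. At intron 5 of PSMB7 (chr9:124392905-124393179), a proteasome subunit, the fold was 20.1 after TWEAK and 7.29 after TNFα. Intron 2 of TNIP2 (chr4:2746151-2746431), an inhibitor of NF-κB that binds A20, had 19.6 after TWEAK and 8.98 after TNFα, where its rank was 390. A region 155 bp from the TSS of FAAH2 had 17.1 and 5.16, and one 20.2 kb from IFNGR2, a chain of the interferon-γ receptor, had 16.7 and 5.99. Others lay near ABHD17C (16.6 and 5.50), in intron 6 of RSRC1 (chr3:158420982-158421244, 16.05 and 6.30), and near TENT4A (15.7 and 6.35). FOSL1 was called at 7 of the 8 in vehicle, against 4 of the 8 TWEAK-only regions.

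The 8 strongest TNFα-only regions were weaker, at 4.91 to 8.29, and ranked 502 to 2262 in their own list. The first and second, 119 kb from CNTNAP2 (fold 8.29) and in intron 3 of PDZRN4 (fold 7.94), each held at least 20 consecutive bases of the mitochondrial genome. In the third, 741 kb from DEFB115 (fold 6.78), the 32 bases at the summit occurred 12 times in the genome. Only the regions near PIK3R1 (fold 5.18), in intron 17 of AGBL2 (fold 5.10) and in intron 1 of CTDSPL (fold 4.91) had H3K27ac, FOSL1 and RELA at 30 min of TNFα. The other 5, with AMY2B (fold 5.14) and, over 1 Mb away, PROS1 (fold 4.96) as further nearest genes, had H3K27ac in none of the 5 lists. In the 200 bp around the summit, 1 of the 8 held a κB match (AGBL2) and 2 an AP-1 match (AGBL2 and PIK3R1).

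**Figure D1:**
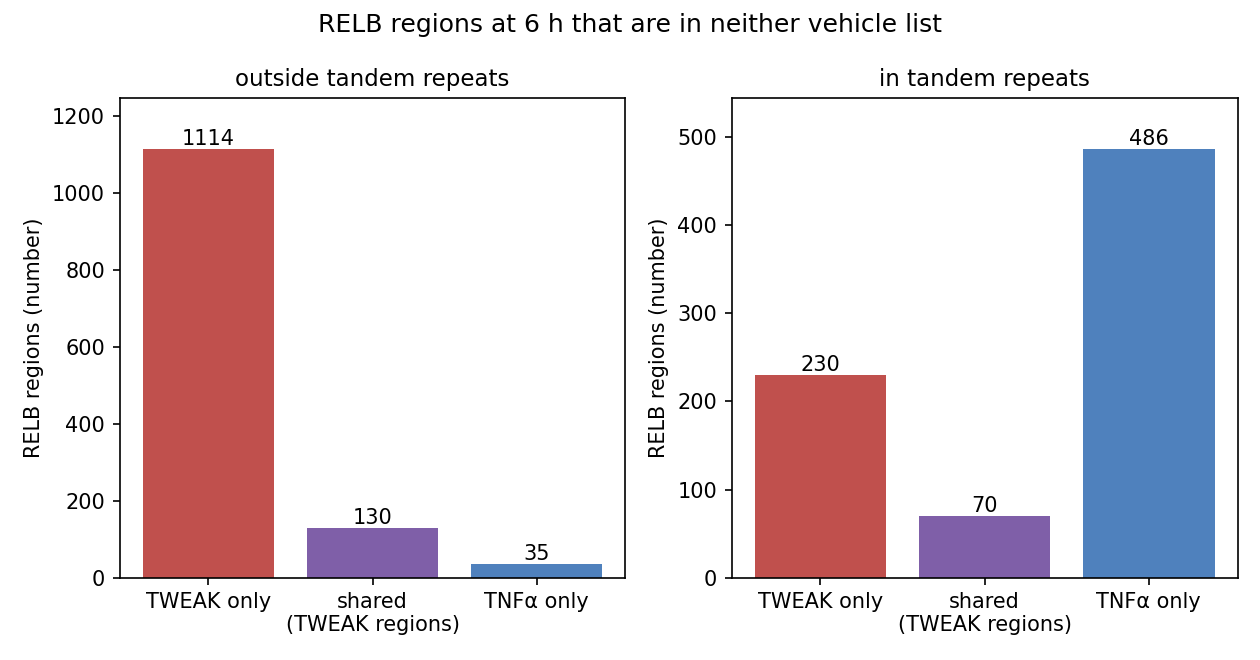
Number of RELB regions at 6 h in neither vehicle list, outside (left) and in (right) tandem repeats; bars are single counts without replicates and the vertical scales differ. Outside repeats TWEAK-only regions (1114) exceed shared (130) and TNFα-only regions (35), and in repeats TNFα-only regions (486) exceed the others.

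How much the 2 lists shared was asked first. Of all regions, vehicle regions included, 53.9% of the TWEAK list and 62.2% of the TNFα list overlapped the other list. Of the regions absent from vehicle, 13.0% of the TWEAK regions were shared (200 of 1544, exact 95% interval 11.3 to 14.7%). The share was 28.2% of the TNFα regions (205 of 726, 24.99 to 31.7%). There were 2.58 TWEAK-only regions for each TNFα-only region (2.33 to 2.86). TWEAK regions not in vehicle were thus mostly absent from the TNFα list, and so were most of the TNFα ones.

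That balance depended on tandem repeats, defined as a summit whose surrounding 1000 bp matched itself at some shift in at least 0.4 of the bases. Repeats held 93.3% of the TNFα-only regions (486 of 521), 35.0% of the shared and 17.1% of the TWEAK-only regions (230 of 1344). Outside them, 78.9% of the TNFα regions were shared (131 of 166, 71.9 to 84.9%), against 10.5% of the TWEAK regions (130 of 1244, 8.81 to 12.3%). The ratio of TWEAK-only to TNFα-only regions was then 31.8 (22.7 to 45.9). Outside repeats the TNFα regions were thus largely a subset of the TWEAK regions, while in repeats 13.2% of TNFα regions (74 of 560) and 23.3% of TWEAK regions (70 of 300) were shared.

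The reference copies of each summit moved with these classes. The 32 bases at the summit occurred once in the genome for 76.4% of TWEAK-only, 60% of shared and 5.76% of TNFα-only regions (30 of 521). In TNFα-only regions the median number of copies was 496. Even outside tandem repeats, 14 of the 35 TNFα-only regions had a single copy, against 1015 of the 1114 TWEAK-only regions (91.1%). A run of at least 20 mitochondrial bases lay in the 200 bp around 2 of those 35 summits, around 1 shared and around 0 TWEAK-only summits. The copy count left out the mitochondrial genome, so those 2 TNFα-only regions are among the 14 of a single copy. Among single-copy regions outside tandem repeats, 118 of 132 TNFα regions were shared (89.4%, 82.8 to 94.1%). How reads with several matches were placed is not given in the sources used here, and the part of copy number in the class sizes was not tested.

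Fold enrichment of the shared regions was higher after TWEAK. Outside repeats it was higher in the TWEAK list at 125 of 130 regions, with a median of 9.15 against 5.30 and a median ratio of 1.81 (quartiles 1.38 and 2.25). In repeats it was higher at 36 of 70, with a median ratio of 1.03. The summits of a pair lay a median of 22 bp apart, and 107 of the 130 pairs lay within 50 bp. Across the 130 pairs the 2 folds had a Spearman correlation of 0.54, a description over regions that share their libraries and input.

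**Figure D2:**
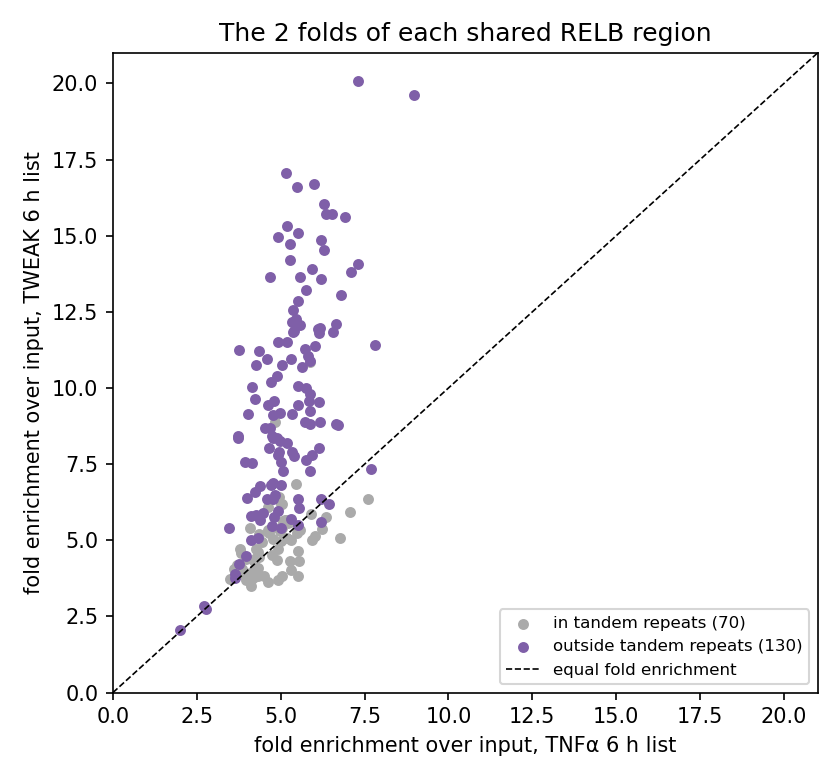
Each point is 1 of the 200 shared RELB regions, with its fold enrichment over input in the TNFα 6 h list (horizontal) and in the TWEAK 6 h list (vertical); the dashed line marks equal folds. Outside tandem repeats 125 of 130 points lie above the line, and in repeats 36 of 70 do.

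Regions that were already listed in vehicle, which the classes leave out, gave a reference for this difference. Outside repeats, 211 such TWEAK regions were also in the TNFα list, and the TWEAK fold was higher at 183 of them (86.7%), with a median ratio of 1.94. For the 150 of these that were in the RELB vehicle list, the fold was a median of 2.09 times that of vehicle after TWEAK and 1.05 times after TNFα. In repeats, over 1715 regions, the same 2 medians were 1.01 and 1.03. Outside repeats, the TWEAK folds thus stood above those of vehicle and the TNFα folds beside them, and in repeats both medians were near 1.

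Sharing followed the strength of a region. When the 1244 TWEAK regions outside repeats were split into quintiles by fold, 29.3% of the strongest quintile (fold 8.70 to 20.1) were shared and 9.24% of the next. The lower 3 quintiles had 4.82, 4.42 and 4.44%. Of the 50 strongest TWEAK regions 28 were shared (56%), and of the 100 strongest, 50 were. Of the TNFα regions outside repeats, 91.2% of the strongest quintile and 100% of the next were also in the TWEAK list, against 48.5% of the weakest. In the TWEAK list, the median fold outside repeats was 6.37 for TWEAK-only and 9.15 for shared regions. In the TNFα list, it was 4.24 for the 35 TNFα-only and 5.29 for the 131 shared regions. TWEAK-only regions were thus weaker than shared ones at the median, although their folds overlapped.

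**Figure D3:**
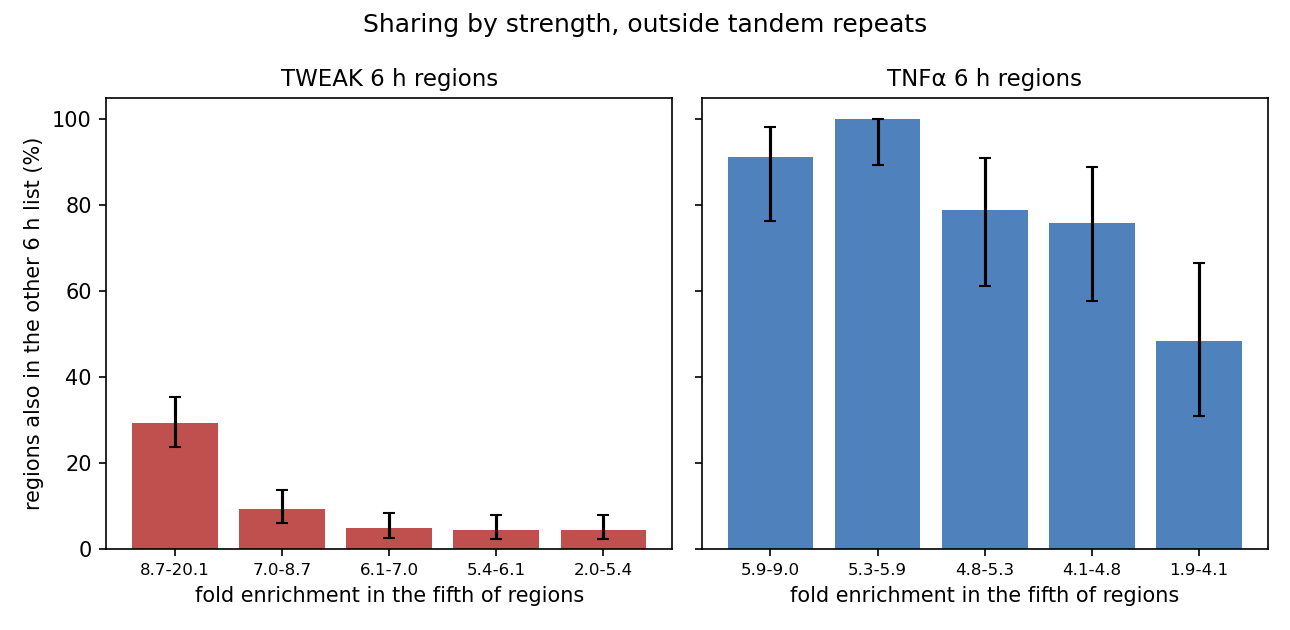
Percent of RELB regions outside tandem repeats that were also in the other 6 h list, by quintiles of fold enrichment from strongest (left) to weakest (right) with the fold range under each bar; error bars are exact 95% intervals of counting. The TWEAK regions decline from 29.3 to 4.44% and the TNFα regions from 91.2 and 100 to 48.5%.

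RELA lists were compared next, since TNFα acts mainly through RELA. Of the TWEAK-only regions, 64.4% (866 of 1344) were also in the RELA list of TNFα at 30 min, against 14.6% (76 of 521) of the TNFα-only regions. The difference was 49.8 percentage points (Newcombe 95% interval 45.7 to 53.6), and outside repeats it was 46.3 points (29.6 to 58.8). With either time of TNFα, RELA had been called at 83.8% of TWEAK-only, 96.9% of shared and 45.7% of TNFα-only regions outside repeats. Regions where RELB appeared only after TWEAK were therefore, for the most part, RELA regions of TNFα-treated cells. The RELA lists were of unequal length on chromosomes 1 to 22 and X. Those of TNFα had 11249 (30 min) and 7266 (6 h) entries, those of TWEAK 2777 (30 min) and 3651 (6 h). The part of list length in the RELA shares, here and in the next paragraph, was not tested.

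RELA was listed at 6 h of TNFα more often at shared regions. RELA at 6 h of TNFα was called at 95.4% of shared (124 of 130) and 72.3% of TWEAK-only regions outside repeats, a difference of 23.1 points (17.4 to 26.8). Regions with RELA at 30 min but not at 6 h of TNFα made up 1.54% of shared and 11.6% of TWEAK-only regions. After 6 h of TWEAK itself, RELA was called at 17.7% of shared and 5.21% of TWEAK-only regions, a difference of 12.5 points (6.69 to 20.0). RELB at 30 min of either ligand was called at 0.718% (TNFα) and 0.359% (TWEAK) of TWEAK-only regions outside repeats. At 30 min of TWEAK, RELA was called at 13.9% of TWEAK-only and 23.1% of shared regions. The TWEAK-only sites were thus nearly absent from the RELB lists of 30 min, and a minority of them was listed for RELA at either time of TWEAK. Regions in either vehicle list, 392 of the 1636 TWEAK regions outside repeats, had been left out of the classes. That choice can lower these shares, and its part was not tested. Shared regions were also the stronger ones, and the part of fold in these differences was not tested. RELA at 30 min of TNFα was called at 88.0% of the strongest TWEAK quintile and 66.1% of the weakest. Within the strongest quintile, RELA of either TNFα time was called at 98.6% of shared and 95.5% of TWEAK-only regions. Neither RELA after TNFα nor FOSL1 was listed at 9.52% of TWEAK-only (106 of 1114), 0% of shared and 37.1% of TNFα-only regions outside repeats.

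FOSL1 was measured in vehicle alone, without either ligand. Over all regions it was called at 55.4% of TWEAK-only (745 of 1344), 70.5% of shared (141 of 200) and 44.7% of TNFα-only regions (233 of 521). Shared regions exceeded TWEAK-only regions by 15.1 points (7.91 to 21.5), and by 14.7 points (5.94 to 22.4) outside repeats. TWEAK-only exceeded TNFα-only regions by 10.7 points (5.66 to 15.7). That second difference was 8.25 points with an interval through 0 (-7.88 to 24.1) outside repeats, and -0.46 points among the 1500 strongest regions of each list. In repeats, where AP-1 motifs were at 0 to 0.870%, FOSL1 was still listed at 68.6% of shared and 44.4% of TNFα-only regions. Within the strongest quintile outside repeats, FOSL1 was at 65.8% of shared and 57.4% of TWEAK-only regions. In the weakest quintile it was at 90.9% of the 11 shared and 62.4% of TWEAK-only regions.

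**Figure D4:**
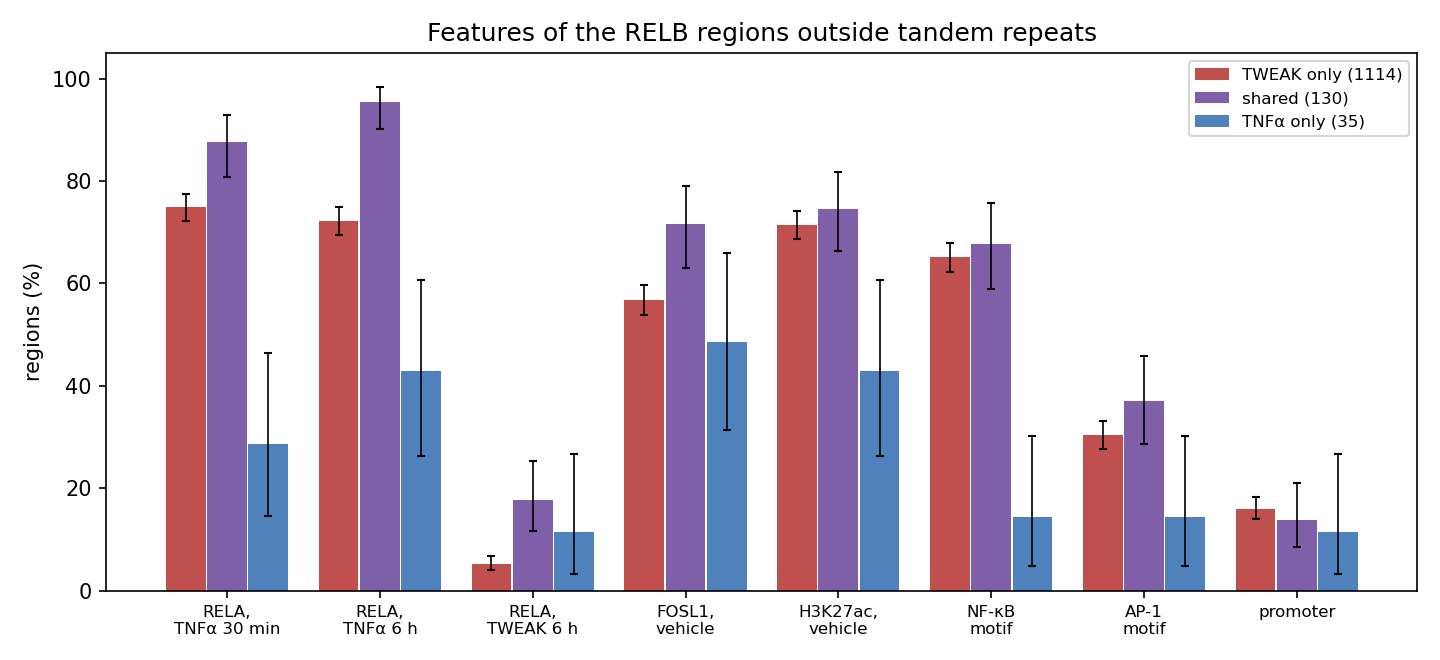
Percent of TWEAK-only (1114), shared (130) and TNFα-only (35) RELB regions outside tandem repeats that overlap a RELA or FOSL1 region, have H3K27ac within 500 bp in vehicle, hold an NF-κB or AP-1 motif within 100 bp of the summit, or lie within 1 kb of a TSS; error bars are exact 95% intervals of counting. NF-κB motifs are in 65.2% of TWEAK-only, 67.7% of shared and 14.3% of TNFα-only regions, and FOSL1 is highest at shared regions (71.5%).

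Motifs separated the TNFα-only regions from the other classes. The NF-κB consensus lay in the 200 bp around the summit of 55.1% of TWEAK-only (740 of 1344), 46.0% of shared and 2.88% of TNFα-only regions (15 of 521), and in 4.17% of the 50097 FOSL1 regions that overlapped no RELA or RELB region. The difference between the exclusive classes was 52.2 points (49.0 to 55.1). Outside repeats the shares were 65.2, 67.7 and 14.3% (5 of 35). Shared and TWEAK-only regions then differed by 2.52 points with an interval of -6.36 to 10.5. The κB matches lay a median of 16 bp from the summit in TWEAK-only and 15 bp in shared regions, against 45 bp in the FOSL1 regions. Over all regions the consensus was thus about as rare at TNFα-only regions, most of them in repeats, as at the FOSL1 regions. Outside repeats it was less rare at the few TNFα-only regions (5 of 35) than at the FOSL1 regions (2039 of 47957). Of the 15 TNFα-only regions with a match, 10 had the same sequence, GGGACGTTCC. In TWEAK-only regions the consensus lay close to the summit. Neither motif was found in 20.9% of TWEAK-only and 18.5% of shared regions outside repeats.

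The same κB sequences led in both TWEAK classes. GGGACTTTCC was the match nearest the summit in 95 of the 726 TWEAK-only regions with a match outside repeats and in 16 of the 88 shared ones. GGGGCTTTCC followed in both, with 65 and 10 regions. GGGGAATTCC (59) and GGGGATTTCC (53) came next in the TWEAK-only class. The 5 matches in TNFα-only regions outside repeats were 5 different sequences.

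AP-1 motifs were present beside κB sites in a minority of regions. TGACTCA on either strand lay within 100 bp of the summit of 25.3% of TWEAK-only, 24.0% of shared and 0.960% of TNFα-only regions (5 of 521), and of 41.7% of the FOSL1 regions outside RELA and RELB. The difference between TWEAK-only and TNFα-only regions was 24.3 points (21.8 to 26.8) and 16.1 points (0.74 to 24.5) outside repeats. Both motifs occurred together in 16.4% of TWEAK-only and 23.1% of shared regions outside repeats, and in 1.05% of the FOSL1 regions. The AP-1 matches lay farther from the RELB summit than the κB matches, at a median of 32 bp in TWEAK-only and 30 bp in shared regions, against 16.5 bp in the FOSL1 regions. The TEAD motif GGAATG was at 15.7, 19.2 and 14.3% in the 3 classes outside repeats, beside 14.7% in the FOSL1 regions.

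**Figure D5:**
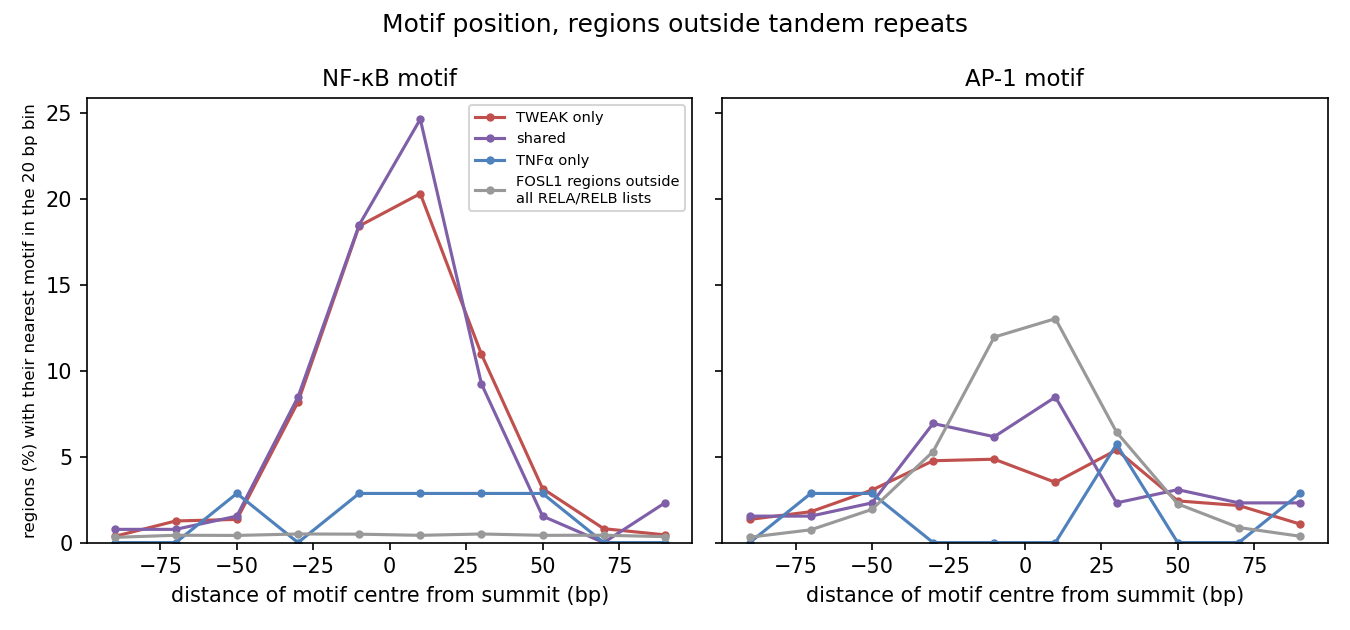
Position of the motif match nearest the summit for regions outside tandem repeats, as the percent of regions whose match centre falls in each 20 bp bin, for the NF-κB consensus (left) and the AP-1 motif (right). Positions run along the plus strand. NF-κB matches peak at the summit in TWEAK-only (18.4% from -20 to 0 bp and 20.3% from 0 to 20 bp) and shared regions. AP-1 matches peak at the summit in FOSL1 regions outside the RELA and RELB lists.

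Genomic positions differed in the same way. Over all regions, 13.7% of TWEAK-only regions lay within 1 kb of a TSS of a protein-coding gene, against 0.960% of TNFα-only regions, a difference of 12.7 points (10.6 to 14.7). Introns held 33.1% of TWEAK-only, 24.5% of shared and 3.26% of TNFα-only regions. Outside repeats the promoter shares were 16.0, 13.8 and 11.4%, and the difference between the exclusive classes was 4.55 points (-10.1 to 11.8). The median distance to the nearest TSS was 23.2 kb for TWEAK-only, 30.0 kb for shared and 54.2 kb for TNFα-only regions outside repeats. The 1114 TWEAK-only regions had 1015 different nearest genes, so the regions were spread singly over the genome.

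H3K27ac was present at most TWEAK-only regions in vehicle-treated cells. Outside repeats, a peak lay within 500 bp of the summit in vehicle at 71.5% of TWEAK-only, 74.6% of shared and 42.9% of TNFα-only regions. Such a peak was not particular to these classes. It was also at 33240 of 47957 FOSL1 regions outside RELA and RELB, and at 308 of 392 TWEAK regions already listed in vehicle. Over all regions, TWEAK-only exceeded TNFα-only regions by 47.9 points (43.6 to 51.7). At the TWEAK-only regions outside repeats, the list at 6 h of TWEAK had 83 regions with a peak not in vehicle and 19 that lacked the vehicle peak, 4.37 gained per lost (2.63 to 7.62). At 6 h of TNFα, where RELB was not called at these regions, the same regions had 145 gained and 4 lost, a ratio of 36.3 (13.9 to 135). At 30 min the counts were 110 and 33 after TNFα and 32 and 76 after TWEAK. The shared regions had 10 gained and 1 lost at 6 h of TWEAK and 20 gained and 0 lost at 6 h of TNFα. For comparison, the FOSL1 regions outside RELA and RELB had 0.324 gained per lost at 6 h of TWEAK and 0.915 at 6 h of TNFα. H3K27ac peaks were thus gained more often than lost at TWEAK-only regions at 6 h of either ligand, and the counts gained were higher at 6 h of TNFα, when these regions were not listed for RELB. The H3K27ac lists differed in length, from 53861 to 61154 regions, and the part of that in these counts was not tested.

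Genes near the regions were counted for 8 lists of NF-κB and related genes, with a summit outside repeats within 50 kb of a TSS. Of 19618 protein-coding genes, 7.47% had a TWEAK-only region, 0.765% a shared region, 0.219% a TNFα-only region and 8.15% any of them. Of the 124 genes in the lists, 34 (27.4%) had a TWEAK-only region, 5 (4.03%) a shared region and 0 a TNFα-only region. The genes were chosen as known members of these pathways, but with earlier results of these data known, so the shares are not independent evidence. Some neighbouring genes were counted for the same region, and gene density and number of TSSs were not matched.

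Among NF-κB subunits and inhibitors, 4 of 11 genes had a TWEAK-only region. BCL3, an IκB protein that acts with p50 and p52 in the nucleus, had one 9.61 kb upstream (chr19:44739020-44739169, fold 7.78). NFKBIE, which encodes IκBε, had one 1.98 kb downstream of its TSS (fold 6.24), RELA had one 101 bp upstream (fold 6.13), and NFKB1, the precursor of p50, had one 49.7 kb away (fold 5.86). All 4 were also in both RELA lists of TNFα. None of the 11 genes had a shared or TNFα-only region.

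Feedback and signalling genes restrain or relay the NF-κB signal. TNIP2 had the shared region in intron 2 described above, and BIRC2 and BIRC3, the cIAP ubiquitin ligases, had 1 between them (fold 3.88 after TWEAK and 3.65 after TNFα). TRAF2, the adaptor that holds the cIAPs, had a TWEAK-only region 738 bp from a TSS (fold 6.62), with both motifs and FOSL1. TNFAIP3, the deubiquitinase A20, had one 5.99 kb into the gene (fold 8.19). In all, 2 of 15 genes had a TWEAK-only and 3 of 15 a shared region.

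In the TNF superfamily, 8 of 21 genes had a TWEAK-only and 2 of 21 a shared region. The TWEAK receptor TNFRSF12A had a shared region 44.9 kb from its TSS (fold 8.02 after TWEAK and 6.15 after TNFα), which lay at the promoter of IL32. The TNFα receptor TNFRSF1A had one 29.0 kb away (7.78 and 5.93), at the promoter of PLEKHG6. The decoy receptors TNFRSF10C and TNFRSF10D had 1 TWEAK-only region between them (fold 12.5), the death receptor FAS had one at 1.93 kb (fold 10.96) and TNFRSF9 had one 59 bp upstream of its TSS (fold 9.34). The nearest TSS of both shared regions was thus that of another gene, and no region was assigned to a receptor by anything but distance.

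Chemokine and cytokine genes had TWEAK-only regions at 6 of 23 and no shared ones. CCL19 and CCL21, lymphoid chemokines, had 1 region between them (fold 8.28), and CXCL12 and CXCL13 of the same list had none of any class. CCL20 had a region 9.08 kb upstream (fold 7.80) and IL1A had one 30.04 kb upstream that lay nearer to IL1B (fold 6.49). Of the matrix, adhesion and migration genes, 9 of 20 had a TWEAK-only region and none a shared one. The integrin gene ITGA2 had one at 42.7 kb (fold 9.83), and the collagenase MMP1 had one 3.56 kb into the gene (fold 8.14) that also lay within 50 kb of MMP3 and MMP10. The counts leave out regions already listed in vehicle, so a gene with a TWEAK-only region can also have a TNFα region of that kind, as TNFAIP3 did at its promoter.

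Of the AP-1 and DUSP genes, 4 of 14 had a TWEAK-only region, at DUSP1 (fold 9.41, 11.6 kb upstream), FOSB (6.93), FOSL1 (6.55) and FOSL2 (4.22). DUSP1 encodes a phosphatase that switches off MAP kinases. The regions counted for FOSB and FOSL1 lay in an intron of ERCC1 and at the promoter of EFEMP2. FOSL1 and H3K27ac were listed at each of the 4 regions in vehicle. Survival and stress genes had 1 of 10, at MCL1 (fold 6.77, in an intron of ENSA), and the YAP and TEAD genes had 0 of 10.

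CXCL8, EFNA1, TNFAIP3, MMP1, BCL3 and NFKBIA, whose tracks the study displays, were examined singly. At the TNFAIP3 promoter, which was also a vehicle region, the RELB fold was 9.12 in vehicle, 7.52 after TNFα and 21.04 after TWEAK. At the NFKBIA promoter, encoding IκBα, it was 9.23 in vehicle, 6.14 after TNFα and 18.1 after TWEAK, and a second region listed for RELA in vehicle had 5.43 after TNFα and 6.95 after TWEAK. MMP1 had 1 TWEAK region and no TNFα region within 50 kb. BCL3 had 3 TWEAK regions, 2 of them RELA regions in vehicle, and no TNFα region. CXCL8 and EFNA1 had no RELB region in either 6 h list. At the TNFAIP3 region and the first NFKBIA region RELB was thus listed in vehicle, and its fold after TWEAK was over 2 times that after TNFα. The second NFKBIA region was not in the RELB vehicle list, and its folds lay closer together.

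The study's expression lists were chosen on RNA-seq of the same ligands and are not independent evidence of direction. Of its TNFα specific genes, 264 of 310 matched a protein-coding gene, and 53 of these had a TWEAK-only region (20.1%, 15.4 to 25.4%), 6 a shared and 0 a TNFα-only region. Over all protein-coding genes these shares were 7.47% with a TWEAK-only and 0.219% with a TNFα-only region, so TWEAK-only regions outnumbered TNFα-only ones over all genes too. IFNGR2 (fold 16.7 after TWEAK) and DTX2 (14.7) led the shared ones, and ZBTB7A (13.6) and STAT5A (12.7, in a region nearer to STAT3) the TWEAK-only ones. For the common genes the count is void, because 491 of 626 matched, under the minimum of 80%.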

How the data were processed

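ChIP-seq peak lists were used as deposited. Per the labels and the study's methods, the authors aligned with Bowtie2 2.5.0 against hg38 and used SAMtools 1.18 and deepTools 3.3.2. Peaks were called with MACS2 (version not given in the sources used here) without a shifting model, with input as background and a cutoff of 0.05, in broad mode for H3K27ac and in narrow mode for the transcription factors. The H3K27ac lists reach a −log10 q of 1.01. The deposited fold enrichment is the authors' ratio of ChIP over input, at a summit in the narrow lists. The broad H3K27ac lists hold no summit, so their folds are not summit values. The deposited −log10 q is the authors' significance of a peak. The −log10 p column was not used.

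Regions were ranked by fold. Overlaps needed 1 bp. Shares carry exact Clopper-Pearson 95% intervals, differences Newcombe intervals and ratios exact binomial intervals, and no p was computed. Motifs were searched on both strands in the 200 bp around a summit, and genes came from GENCODE 44. Tandem repeats were scored in 1000 bp at shifts up to 400 bp with a limit of 0.4, taken from earlier work and set after the data had been seen. Exact copies of the 32 bases at a summit were counted on chromosomes 1 to 22, X and Y, also a later choice. Members, lists and tests were chosen with earlier results of these data known. Named regions are the 8 of highest fold in each class outside repeats, with shared regions ranked by their TWEAK fold. Up to 4 of a class not on chromosome 8 are printed, with 2 windows in exons passed over. For 2 of the named regions the position and values are not reported here. Named genes are up to 4 a list and class by highest fold, and 6 example genes. Python 3.11.15, NumPy 2.4.6, SciPy 1.17.1, pandas 2.3.3 and pysam 0.24.0 were used, and functions were tested on simulated data. The alternatives were other cutoffs, overlaps, vehicle lists and windows.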

Additional observations from a re-analysis of the deposited data

How the results depend on the processing

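Of 111 recomputed values, 101 planned and 10 added after seeing the data, 91 kept their direction and call and 14 shares or ratios moved past their counting interval. With repeats left out, 10.5% of TWEAK and 78.9% of TNFα regions were shared, the ratio of exclusive regions was 31.8, and the FOSL1 (8.25 points) and promoter (4.55 points) differences between the exclusive classes had intervals through 0. With summit bases unique in the genome, an added alternative, these values were 10.5%, 80.1% and 34.2, and the FOSL1 (15.6 points) and AP-1 motif (14.5 points) differences had intervals through 0. A fold of at least 5 gave 7.90%, 36.3%, a ratio of 6.52 and a FOSL1 difference of 6.18 points (-1.67 to 14.0). The 1500 strongest regions of each list gave 7.42%, 36.7%, a ratio of 7.23 and a reversed FOSL1 difference of -0.46 points (-12.2 to 12.1). Leaving out the RELB vehicle list alone gave 17.0% and 33.9%. The AP-1 motif difference was 16.1 to 34.7 points under the alternatives chosen earlier. Leaving out the RELB vehicle list alone kept more regions (1516 TWEAK-only against 1344), while the other settings named here kept fewer. The cause of these moves was not tested. No paired analysis was possible because each group has 1 list of merged samples, and no sample could be left out in turn for the same reason.

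Depth per sample is unknown, so a region absent from a list was not detectable at that depth rather than shown to be unbound. A region present in 1 list alone can lie just under the cutoff in the other. The intervals treat regions as units and say nothing about the spread between samples.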
